A study of Macaca mulatta with 24 samples.

Results

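The 9 genes described here, MDM2, CDKN1A, PLK2, DDB2, XPC, RPS27L, ZMAT3, SESN1 and TP53INP1, are textbook targets of the transcription factor p53 that act in cell cycle arrest, DNA repair and feedback. They were followed through every probe whose gene symbol in the deposited normalized ileum table was one of these names, which gave 12 probes for 9 genes out of 23674 probes with 16094 symbols. MDM2, DDB2 and TP53INP1 had a pair of probes each, called brighter and dimmer here after their mean signal. All 12 probes were well above background on all 24 arrays. The genes were selected on earlier results of these arrays, taken here to be the comparisons of irradiated with unirradiated ileum, so the differences from unirradiated animals are given as a description: no p-value is printed for them, and the numbers of calls among them are counts from which nothing is read. The comparisons between doses and between days were tested, on the assumption that they did not enter that choice, although the day 4 animals did.

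Total RNA of whole ileal tissue from young adult male rhesus macaques (Macaca mulatta) was hybridised to single-colour Agilent arrays, 1 array per animal. There were 4 unirradiated animals and 20 that received total-body irradiation (TBI) with cobalt-60 gamma rays at 6.7 Gy or 7.4 Gy. After each dose, 4 animals were sampled on day 4, 4 on day 7 and 2 on day 12. The unirradiated animals are labelled day 4 and served for all days, and no other genetic or drug treatment is given in the labels.

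In undamaged cells the p53 protein is kept low by MDM2, a ubiquitin ligase that marks it for degradation. After DNA breaks, kinases such as ATM modify p53 and MDM2, p53 accumulates and switches on its targets, among them MDM2 itself, so that the response is limited by its own product. The other members hold the cell cycle (CDKN1A, PLK2), recognise damaged DNA (DDB2, XPC), or tune growth, RNA stability and redox state (SESN1, ZMAT3, RPS27L). In the intestine, the dividing cells of the crypt are known to be the most radiosensitive part of the epithelium.

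Levels are log2 signals relative to the 75th percentile of each array, so they cannot be compared between probes, and 1 unit is a 2-fold difference. A probe was called when its difference was at least 2-fold with an adjusted p under 0.05 (limma, Benjamini-Hochberg over 36110 tested probes), and in counts of genes the brighter probe stood for a gene. Because whole tissue was used, fewer cells of a type and less RNA per cell cannot be told apart. The tissue carried the ileal markers FABP6, the ileal bile acid-binding protein, at 8.74 ± 0.05 (SD, n = 4) in unirradiated animals, and SLC10A2, the ileal bile acid transporter, at 3.40. The enterocyte marker FABP2 was well above background on 10 of the 24 arrays.

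On day 4 the level was higher than in unirradiated ileum for MDM2 by its dimmer probe, PLK2, DDB2, RPS27L and ZMAT3, each by 2.746-fold to 6.149-fold. CDKN1A, SESN1, XPC, TP53INP1 and the brighter MDM2 probe stayed under 2-fold at both doses. By day 7 the same 5 genes were between 0.45 and 1.53 above the unirradiated mean on the log2 scale, and by day 12 between 0.07 and 0.81.

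MDM2 was read differently by its 2 probes. The dimmer probe lay between -3.16 and -3.01 in the 4 unirradiated animals. On day 4 it read -1.25, -0.81, -1.56 and -1.44 after 6.7 Gy, and -0.77, -1.14, -1.07 and -1.13 after 7.4 Gy. All 8 irradiated animals were above all unirradiated ones, by 3.595-fold and 4.228-fold on average (log2 change 1.85 and 2.08, SE 0.16). On day 7 its levels were -2.12, -2.46, -2.33 and -2.12 after 6.7 Gy and -1.85, -2.43, -2.39 and -2.46 after 7.4 Gy. On day 12 they were -2.64 and -2.76 after 6.7 Gy and -2.44 and -2.30 after 7.4 Gy. No irradiated animal on any day reached down to the unirradiated range, and the mean change was 0.85 and 0.83 on day 7 and 0.41 and 0.74 on day 12.

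The brighter MDM2 probe showed no such separation. It read 1.36, 0.98, 0.82 and 0.79 in unirradiated animals, 1.27, 1.34, 1.14 and 0.62 on day 4 after 6.7 Gy, and 1.18, 1.40, 1.24 and 1.35 on day 4 after 7.4 Gy. The groups overlapped in all 6 comparisons with unirradiated ileum, and the log2 change ranged from 0.03 on day 12 after 6.7 Gy to 0.31 on day 4 after 7.4 Gy. Over the 24 arrays the 2 MDM2 probes correlated with r = 0.32, a description over arrays that share groups. Since the brighter probe stands for the gene, MDM2 is among the genes not called in the counts below, while the mean of both probes would be called on day 4 after 7.4 Gy, with a log2 change of 1.19. Which transcripts each probe reads was not tested, since probe sequences were not used here.

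**Figure D1:**
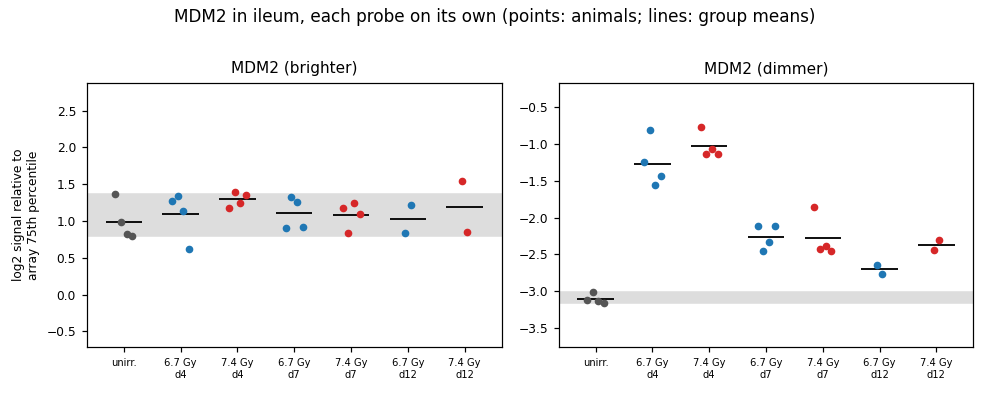
Each panel plots 1 MDM2 probe, with the log2 signal relative to the array's 75th percentile on the y axis and the 7 groups on the x axis. Points are animals, lines are group means and the grey band is the range of the 4 unirradiated animals. The dimmer probe lies above the band in all 20 irradiated animals, from -0.77 on day 4 down to -2.76 on day 12, and the brighter probe overlaps it in every group.

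Of the arrest genes, PLK2 separated from the unirradiated animals on day 4 and CDKN1A overlapped them. PLK2, a polo-like kinase that p53 induces, read -1.96, -1.58, -2.09 and -2.31 in unirradiated ileum. On day 4 it read 0.29, 0.17, -0.41 and 0.04 after 6.7 Gy and 0.15, -0.03, 0.22 and -0.30 after 7.4 Gy. The groups did not overlap, and the mean was 4.016-fold and 3.98-fold higher (log2 change 2.01 and 1.99, SE 0.23). On day 7 PLK2 was at -1.25, -1.51, -1.99 and -1.39 after 6.7 Gy and at -1.02, -2.08, -1.42 and -1.23 after 7.4 Gy, which overlapped the unirradiated animals. On day 12 it read -1.68 and -1.97 after 6.7 Gy and -1.52 and -2.30 after 7.4 Gy, a log2 change of 0.16 and 0.07.

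CDKN1A, which encodes the cyclin-dependent kinase inhibitor p21, was at 4.71, 3.68, 3.94 and 3.48 in the unirradiated animals, a wider spread (SD 0.54) than in any irradiated group. On day 4 it read 4.98, 4.64, 4.37 and 4.54 after 6.7 Gy and 4.30, 4.84, 4.65 and 4.18 after 7.4 Gy. The day 4 animals all lay above 3 of the 4 unirradiated animals, but unirradiated replicate 1 lay within their range. The log2 change was 0.68 and 0.54 (SE 0.23) on day 4, 0.38 and 0.15 on day 7, and 0.40 and 0.31 on day 12, none of which was called. CDKN1B, the related inhibitor p27, had log2 changes of -0.29 and -0.24 on day 4.

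The cell cycle genes that p21 is known to hold down were taken from a list chosen with earlier results known. Of its 12 genes 9 were tested and 0 were called on day 4 at either dose. Their median log2 change was 0.70 after 6.7 Gy and 0.27 after 7.4 Gy on day 4, 0.61 and 0.50 on day 7, and 0.05 and 0.31 on day 12. Their summed linear level was 12.80 to 16.31 in unirradiated ileum, 12.57 to 38.46 and 12.68 to 21.23 on day 4, and 20.76 to 24.78 and 17.29 to 25.30 on day 7. The day 7 sums lay above the unirradiated range, with 9 of 9 genes higher in the mean at both doses and 0 called. Of all tested probes, 49.5% and 45.7% were higher in the mean on day 7. Every day 7 animal was above every unirradiated one for 4.47% and 3.72% of them.

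TP53INP1, a stress-induced nuclear protein that interacts with p53, had 2 probes that correlated with r = 0.12 over the 24 arrays. The brighter one read -0.06, 0.20, 0.11 and 0.06 in unirradiated ileum and changed by 0.01 at both doses on day 4. On day 12 it read 0.68 and 0.41 after 6.7 Gy and 0.39 and 0.30 after 7.4 Gy, above all unirradiated animals, with log2 changes of 0.47 and 0.26 that were not called. The dimmer probe had log2 changes of 0.33 and 0.49 on day 4 and of -0.11 and -0.17 on day 12, not called on either day, so the pair differed in sign on day 12.

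Among the repair genes, DDB2 was far from the unirradiated range and XPC was not. DDB2 is the damage-sensing subunit of the UV-damaged DNA-binding complex, which it forms with DDB1, and both it and XPC start global genome nucleotide excision repair. The brighter DDB2 probe read 0.98, 1.64, 1.67 and 1.8 in unirradiated ileum. On day 4 it read 4.23, 4.21, 3.76 and 3.12 after 6.7 Gy and 3.91, 4.17, 3.81 and 4.26 after 7.4 Gy. These groups did not overlap, and DDB2 was 4.945-fold and 5.718-fold higher (log2 change 2.31 and 2.52, SE 0.22). On day 7 it read 2.82, 2.68, 2.52 and 2.85 after 6.7 Gy and 2.99, 3.12, 2.96 and 3.15 after 7.4 Gy. That was still 2.288-fold and 2.89-fold higher, and DDB2 was the member gene called against unirradiated ileum on day 7, at both doses. On day 12 it read 1.71 and 1.96 after 6.7 Gy, overlapping the unirradiated range, and 1.96 and 2.62 after 7.4 Gy, above it. The dimmer DDB2 probe followed the brighter one over the 24 arrays (r = 0.99), with log2 changes of 2.45 and 2.62 on day 4, 1.21 and 1.47 on day 7, and 0.49 and 0.81 on day 12.

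XPC, the damage sensor that follows DDB2 in the same repair route, was at 2.77, 2.61, 2.41 and 2.32 in unirradiated ileum. It read 2.41, 2.75, 2.84 and 2.20 on day 4 after 6.7 Gy and 2.59, 3.00, 2.55 and 2.86 after 7.4 Gy. The groups overlapped, with log2 changes of 0.02 and 0.22, and of -0.24 and -0.14 on day 7. DDB1, the partner of DDB2, changed by 0.09 and 0.01 on day 4. Of 13 nucleotide excision repair genes on a list chosen with earlier results known, 9 were tested and 0 were called on day 4, with a median log2 change of 0.02 and 0.01.

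RPS27L encodes a ribosomal protein close to RPS27 that p53 induces and that binds MDM2. It read 3.17, 2.44, 2.08 and 2.59 in unirradiated ileum. On day 4 it was at 4.33, 4.09, 4.25 and 3.44 after 6.7 Gy and at 4.21, 4.39, 4.35 and 4.24 after 7.4 Gy, with no overlap, 2.746-fold and 3.308-fold higher (log2 change 1.46 and 1.73, SE 0.19). On day 7 the animals after 7.4 Gy read 3.41, 3.26, 3.24 and 3.36, all above the highest unirradiated animal, and those after 6.7 Gy read 3.26, 3.07, 2.92 and 2.95, which overlapped. On day 12 RPS27L read 2.99 and 2.66 after 6.7 Gy and 2.80 and 3.08 after 7.4 Gy, inside the unirradiated range. Whether its probe also reads RPS27 transcripts was not tested.

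ZMAT3 is a zinc-finger RNA-binding protein. Unirradiated ileum read -4.24, -4.28, -3.99 and -3.94. On day 4 ZMAT3 read -2.05, -2.09, -2.66 and -2.64 after 6.7 Gy and -2.20, -1.98, -2.36 and -2.32 after 7.4 Gy, 3.368-fold and 3.725-fold higher (log2 change 1.75 and 1.9, SE 0.15). On day 7 it read -3.27, -3.43, -3.38 and -3.18 after 6.7 Gy and -3.14, -3.52, -3.10 and -3.14 after 7.4 Gy. On day 12 it read -3.47 and -3.44 after 6.7 Gy and -3.55 and -3.76 after 7.4 Gy. As with the dimmer MDM2 probe, every irradiated animal on every day was above every unirradiated one, with log2 changes of 0.80 and 0.89 on day 7 and of 0.66 and 0.46 on day 12.

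SESN1, a sestrin that restrains growth signalling through mTORC1, read 0.52, 0.96, 0.35 and 0.72 in unirradiated ileum. On day 4 it read 1.23, 1.05, 1.35 and 0.56 after 6.7 Gy, which overlapped, and 1.49, 1.62, 1.35 and 1.32 after 7.4 Gy, which did not. The log2 change was 0.41 and 0.81 (SE 0.16), under the 2-fold limit at both doses. Its relatives SESN2 and SESN3 had log2 changes of -0.21 and 0.08, and of 0.48 and 0.36, on day 4.

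**Figure D2:**
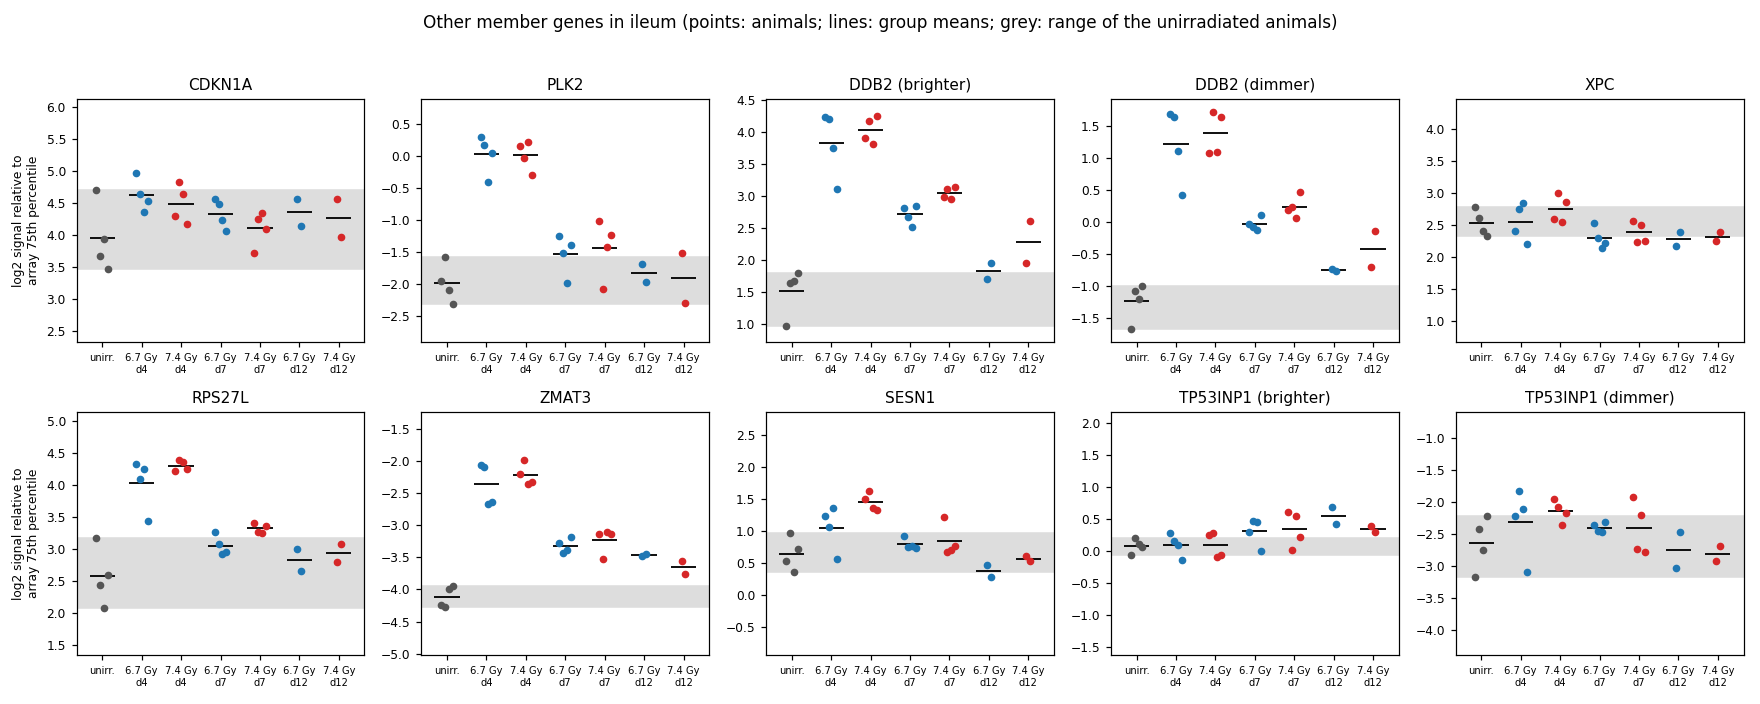
The 10 panels plot the probes of the other 8 genes, with the log2 signal relative to the array's 75th percentile on the y axis and the 7 groups on the x axis. Points are animals, lines are group means and the grey band is the range of the unirradiated animals. PLK2, DDB2, RPS27L and ZMAT3 leave the band on day 4 in all 8 animals, while CDKN1A, XPC and TP53INP1 overlap it on that day.

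Counted by gene, 4 of 9 members (PLK2, DDB2, RPS27L and ZMAT3) were called higher on day 4 after 6.7 Gy, where 0.595% of all tested probes were, and 4 of 9 after 7.4 Gy, where 1.6% were. On day 7 it was 1 of 9 at each dose (background 0.0526% after 6.7 Gy and 0.114% after 7.4 Gy), and on day 12 it was 0 of 9 (0.0332% and 0.0194%). These shares are printed for reference only, because the members were chosen from these comparisons. The day 7 call of DDB2 after 6.7 Gy was lost when unirradiated replicate 1 or day 7 replicate 1 or 4 was left out, and the methods' t-test with Benjamini-Hochberg adjustment gave 0 calls on day 4 after 6.7 Gy and on day 7 at both doses. At an unadjusted p under 0.05 and any fold, 2 of 9 members differed on day 12 at each dose, beside 8.98% of all tested probes after 6.7 Gy and 8.13% after 7.4 Gy. Every animal of the group was above every unirradiated animal for 4 and 5 members on day 4 (background 4.1% and 7.84% of probes), 2 and 3 on day 7 (4.47% and 3.72%), and 2 and 3 on day 12 (15.3% and 8.43%), the lower dose first. The median log2 change over the 9 genes was 0.68 and 0.81 on day 4, 0.38 and 0.26 on day 7, and 0.25 and 0.26 on day 12, beside -0.10 and -0.07, 0.00 and -0.03, and 0.06 and -0.01 over all tested probes.

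**Figure D3:**
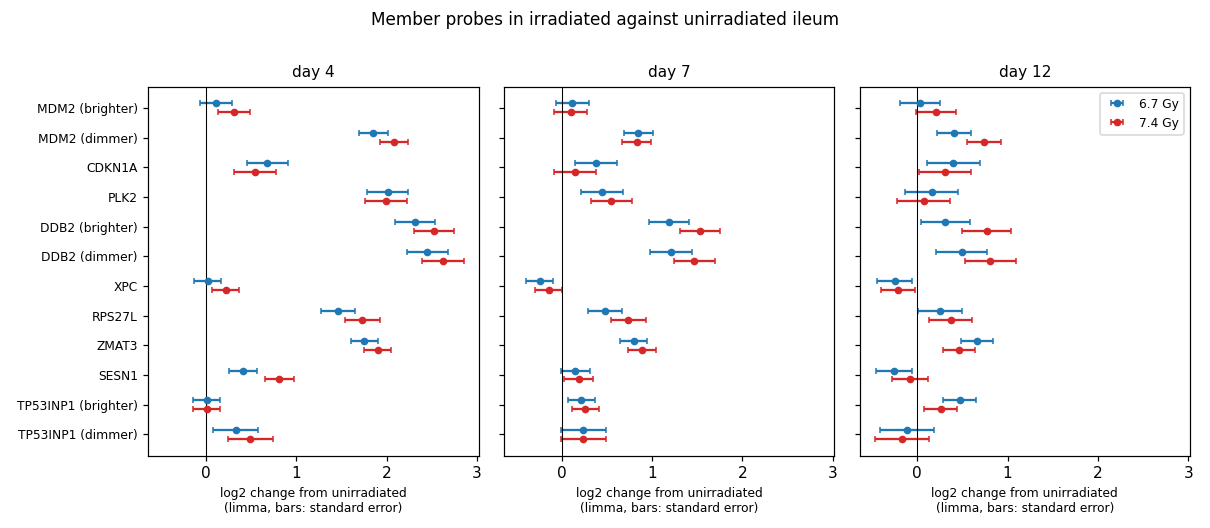
The plot gives the log2 change of each of the 12 probes against unirradiated ileum on days 4, 7 and 12, with bars for the standard error, for 6.7 Gy in blue and 7.4 Gy in red. The DDB2 probes, PLK2, the dimmer MDM2 probe, ZMAT3 and RPS27L stand at 1.46 to 2.62 on day 4, and no probe exceeds 0.81 on day 12.

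The levels of day 7 were compared directly with those of day 4, a contrast that no unirradiated animal enters. All day 4 arrays were in slide positions 1 and 2 and all day 7 arrays in positions 3 and 4, so position and day cannot be told apart in it. The fall was largest for PLK2, by 1.56 on the log2 scale after 6.7 Gy (95% CI -2.04 to -1.08, adjusted p = 0.0053) and by 1.45 after 7.4 Gy (-1.93 to -0.97, adjusted p = 0.0031). The brighter DDB2 probe fell by 1.11 after 6.7 Gy (-1.57 to -0.65, adjusted p = 0.023), and the difference after 7.4 Gy was -0.98 (adjusted p = 0.017), just inside 2-fold. ZMAT3 fell by 1.01 after 7.4 Gy (adjusted p = 0.0015), and its difference after 6.7 Gy was -0.96 (adjusted p = 0.007). For RPS27L both differences were -0.98 (adjusted p = 0.025 and 0.0096), again just inside the limit.

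Of the further probes, the dimmer MDM2 probe fell by 1.25 after 7.4 Gy (95% CI -1.58 to -0.92, adjusted p = 0.00072), and after 6.7 Gy its difference of -1.0 came just short of 2-fold (adjusted p = 0.007). The dimmer DDB2 probe fell by 1.24 and 1.15 (adjusted p = 0.019 and 0.011). SESN1 differed by -0.61 after 7.4 Gy (adjusted p = 0.041), less than 2-fold, and by -0.26 after 6.7 Gy (adjusted p = 0.38). CDKN1A differed by -0.30 and -0.38 (adjusted p = 0.49 and 0.39) and XPC by -0.26 and -0.36 (adjusted p = 0.34 and 0.19), which did not pass the test. By gene, 2 of 9 members were called lower at each dose, PLK2 and DDB2 after 6.7 Gy and PLK2 and ZMAT3 after 7.4 Gy, where 0.111% and 0.349% of tested probes were. A fall from day 4 is not independent of the choice of genes, since the day 4 animals took part in it.

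Leaving out 1 animal moved these counts: they ranged from 1 to 4 at each dose. Without replicate 1 or 2 of day 4 or replicate 2 or 3 of day 7 the count after 6.7 Gy was 1, and without replicate 4 of day 4 it was 4, namely PLK2, DDB2, RPS27L and ZMAT3. After 7.4 Gy the count was 4 without replicate 1 of day 4 and 1 without replicate 2. The methods' t-test with Benjamini-Hochberg adjustment gave 0 at both doses, and normexp background gave 1 after 7.4 Gy.

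Between day 7 and day 12, with the doses averaged, 0 of 9 members were called lower (background 0.0249%), and the 12 probes differed by -0.82 to 0.12. The smallest adjusted p was 0.065, for the brighter DDB2 probe at -0.82. At an unadjusted p under 0.05 and any fold, 3 of 9 members differed, namely DDB2, ZMAT3 (-0.29) and SESN1 (-0.34), all lower on day 12, beside 14.4% of all tested probes in either direction. All day 12 arrays were in slide position 4, all day 4 arrays in positions 1 and 2, and most day 7 arrays in position 3. Position and day were therefore largely tied together between days 7 and 12 as well. From day 4 to day 12 they cannot be told apart, and the day 4 animals took part in the choice of genes. In that contrast 4 of 9 members were called lower (background 1.21%). They were PLK2, by 1.88 (adjusted p = 3.3e-05), DDB2, by 1.87 (2.1e-05), RPS27L, by 1.28 (0.00019), and ZMAT3, by 1.27 (2.1e-05). The dimmer MDM2 probe fell by 1.39 (adjusted p = 1.6e-05) and SESN1 differed by -0.78 (0.0019). The TP53INP1 probes did not pass, at 0.35 for the brighter (adjusted p = 0.057) and -0.55 for the dimmer (adjusted p = 0.075).

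No difference between the doses passed the test for these genes. Between 7.4 Gy and 6.7 Gy the 12 probes differed by -0.14 to 0.39 on day 4, by -0.23 to 0.34 on day 7 and by -0.20 to 0.45 on day 12. No member was called on any of the 3 days, and of all tested probes 0% were called on day 4, 0% on day 7 and 0.00277% on day 12. The smallest adjusted p-values were 0.88, 0.99 and 0.84. At an unadjusted p under 0.05 and any fold, 1 of 12 probes passed on day 4 and 0 on days 7 and 12, beside 5.54%, 4.02% and 6.25% of all tested probes on days 4, 7 and 12. The one was SESN1, higher by 0.39 after 7.4 Gy (95% CI 0.06 to 0.72, adjusted p = 0.88), and by 0.23 without replicate 4 of the 6.7 Gy animals. Within position 2, which held all 4 animals of 7.4 Gy on day 4 but 2 of 6.7 Gy, replicate 4 among them, the 12 probes differed by 0.04 to 0.62, and with position as a covariate 0 members were called. The intervals do not show equal levels, and on day 12 each dose had 2 animals.

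**Figure D4:**
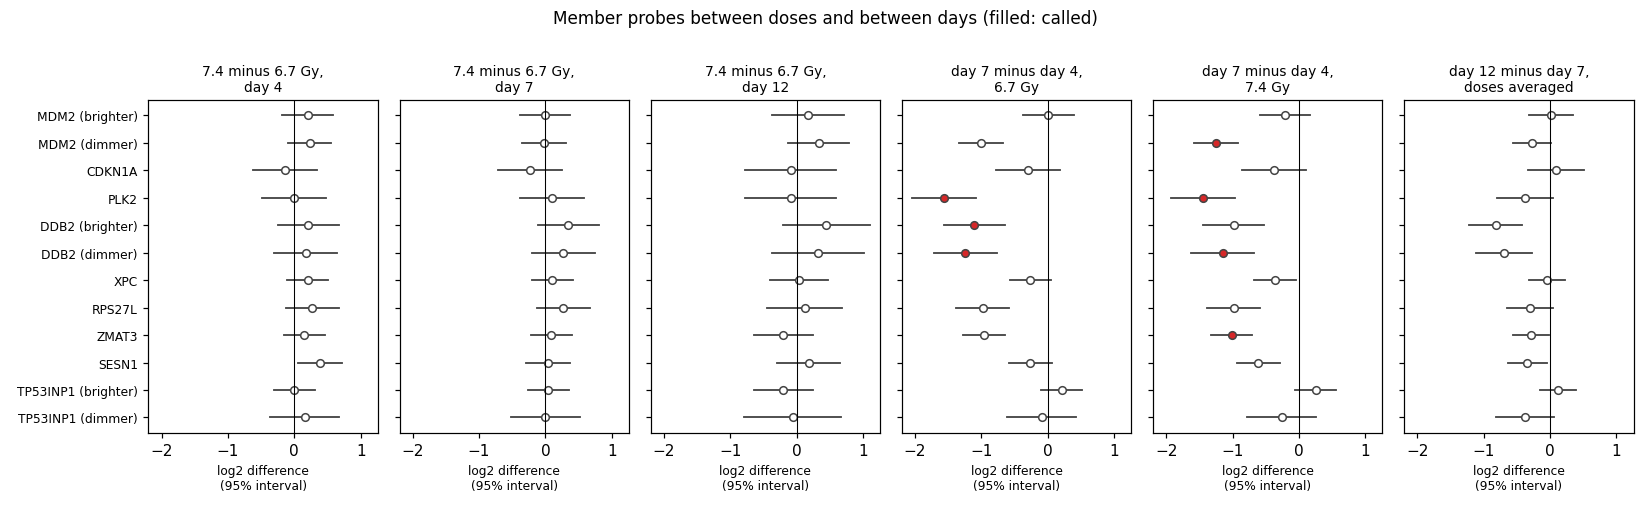
Points are tested log2 differences for the 12 probes with 95% confidence intervals, between doses (7.4 Gy minus 6.7 Gy) and between days, filled where called. The dose differences lie between -0.23 and 0.45, and the day 7 minus day 4 differences reach -1.56 for PLK2.

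Averaged over the 9 genes and set against the unirradiated mean, the animals of day 4 stood at 1.2, 1.13, 0.95 and 0.62 after 6.7 Gy and between 1.04 and 1.28 after 7.4 Gy. Those of day 7 stood between 0.29 and 0.59, those of day 12 between 0.16 and 0.32, and the unirradiated animals between -0.10 and 0.12. The lowest day 4 animal, replicate 4 after 6.7 Gy, also stood apart in the epithelium. Its FABP6 level was 7.00, against 8.20 to 8.57 in the other animals of its group, its VIL1 level was 1.91, against 2.42 to 2.88, and the summed linear level of 7 ileal epithelial markers, most of it FABP6, was 184.1 against 382.2 to 481.9. Without it the day 4 changes after 6.7 Gy were 2.54 for DDB2, 1.65 for RPS27L, 1.84 for ZMAT3 and 2.0 for PLK2, and the same 4 genes were called.

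Among pairs of the 9 genes the correlation over the 24 arrays ranged from -0.26 to 0.94 with a median of 0.43 (36 pairs). DDB2 and ZMAT3 were the closest pair, with r = 0.94, followed by PLK2 and ZMAT3 with r = 0.92. After each group's mean was removed the range was -0.34 to 0.59 with a median of 0.26, and DDB2 and ZMAT3 had r = 0.50. The arrays share groups and processing, so these values describe the arrays only.

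MDM4, the partner of MDM2 in restraining p53, changed by 0.03 and 0.05 on day 4 and was not called. Of 10 relatives of the members on a list, 8 were tested and 0 were called on day 4.

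Of 30 other p53 targets on 3 lists, 20 were tested. On day 4, 4 of 20 were called higher at each dose (background 0.595% and 1.6% of probes). All came from the list of cell death genes and others, in which 9 genes were tested. They were BAX, which opens the mitochondrial membrane (log2 change 1.05 and 1.06), the death receptor FAS (1.04 and 1.1), the TNF-receptor family member EDA2R (3.37 and 3.65) and the stress cytokine GDF15 (3.83 and 4.23). Of the 9 tested genes 7 were higher in the mean at each dose, beside 38.8% and 42% of all tested probes. The other two, named after their values were seen, were PERP, at -0.66 and -0.51, and TP53I3, at -1.0 and -0.67, neither of them called. On day 7 EDA2R (2.28 and 2.73) and GDF15 (1.66 and 1.91) were called higher (background 0.0526% and 0.114%). On day 12 GDF15 was called higher after 6.7 Gy (2.30, background 0.0332%). The 8 tested genes of the other arrest and feedback list gave 0 calls on day 4, as did the 3 tested genes of repair and metabolism. Of the relatives of PLK2, PLK3 had log2 changes of -0.42 and -0.45 on day 4 and PLK1, named after its values were seen, 0.74 and 0.53, neither of them called. The median log2 change over the 20 genes was 0.27 and 0.45 on day 4, beside -0.10 and -0.07 over all probes. These lists, too, were chosen with earlier results known. On day 4 after 6.7 Gy 2 of the 20 were called without replicate 1 of that group, on day 7 after 6.7 Gy 1 was called when any unirradiated animal or any animal of that group was left out, and on day 12 after 6.7 Gy 0 were called when any unirradiated animal, day 12 replicate 2 or day 7 replicate 2 of that dose was left out. With normexp background 2 were called on day 4 at each dose. With slide as a block 2 were called on day 4 after 7.4 Gy and 0 on day 12 after 6.7 Gy, and with a replicate block 1 on day 7 and 0 on day 12 after 6.7 Gy. Without replicate 4 of day 4 after 6.7 Gy, 2 were called on day 12 after 6.7 Gy and 1 after 7.4 Gy.

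**Figure D5:**
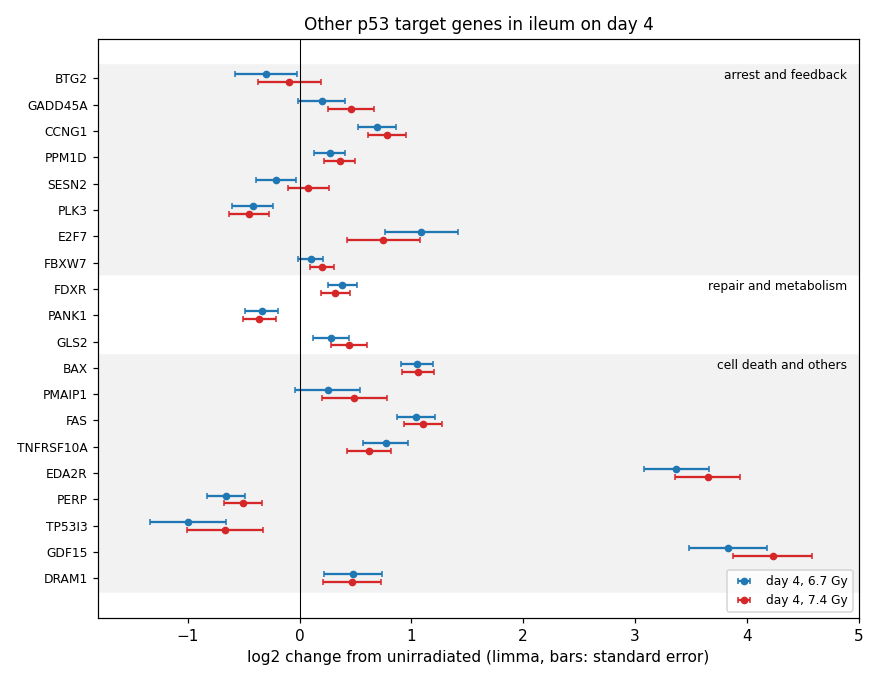
Log2 change on day 4 against unirradiated ileum for the tested genes of the other p53 target lists, 6.7 Gy in blue and 7.4 Gy in red, with bars for the standard error and shading by list. EDA2R and GDF15 lie between 3.37 and 4.23, BAX and FAS between 1.04 and 1.1, and 0 genes of the other lists were called.

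The 8 symbols whose levels over the 24 arrays were most like the mean of the 9 members, out of 14233 compared, were DCP1B (r = 0.94), PSD2 (0.93), MCOLN3 (0.92), BAX (0.91), LOC709782 (0.91), CST6 (0.88), LCN15 (0.87) and EDA2R (0.87). The arrays share groups and the symbols are the highest of all those compared, so the values describe the arrays only. Spearman's rho for these 8 lay between 0.86 and 0.94. Their size of change differed widely. On day 4 DCP1B, which takes part in mRNA decapping, changed by 0.78 and 0.90, MCOLN3, a lysosomal calcium channel, by 1.34 and 1.58, and the lipocalin LCN15 by 5.80 and 7.10.

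Markers of the tissue's cells moved on the same day. VIL1, the brush-border protein villin, 1 of 7 epithelial markers tested, was called lower on day 4 (log2 change -1.32 and -1.27). Of these 7 markers, 1 was higher in the mean after 6.7 Gy and 2 after 7.4 Gy, and 0 were called higher. The summed level of the 7 epithelial markers tested of 9, again mostly FABP6, was 518.7 to 583.6 in unirradiated animals, 184.1 to 481.9 and 449.0 to 465.8 on day 4, and 588.9 to 623.8 and 453.7 to 677.3 on day 7. The B cell gene CD79B was called lower at -1.29 and -1.25, 1 of 3 markers tested, and the B cell sum was 0.921 to 2.70 in unirradiated animals and 0.616 to 1.37 and 0.561 to 0.914 on day 4. Of 3 red cell genes tested 2 were called lower on day 4, HBB with log2 changes of -6.11 and -5.88 and HBA with -3.30 and -3.32. The macrophage marker CD14, 1 of 4 tested, was called higher at 1.14 after 7.4 Gy. Of 5 plasma cell, 5 T cell and 2 smooth muscle markers tested, 0 were called on day 4. The same held for the 2 stem and crypt markers, 1 colon marker and 1 stomach marker tested. The 2 crypt stem cell markers are named after their values were seen. LGR5 had log2 changes of -0.03 and 0.09, and OLFM4, well above background on 15 arrays, had 2.69 and 2.93. On day 4 the OLFM4 levels were spread from -8.83 to 0.64 after 6.7 Gy and from -5.28 to -3.03 after 7.4 Gy. In unirradiated ileum they lay between -7.42 and -6.35. The part of these shifts in the levels of the 9 genes was not tested.

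Arrays lay on 6 slides with 4 positions each, and the unirradiated animals were all in position 1, so position cannot be told apart from group for days 7 and 12. The day 4 animals after 7.4 Gy were all in position 2, and of those after 6.7 Gy 2 were in position 1 and 2 in position 2. Within position 1 these 2 animals exceeded the unirradiated ones by 2.70 for DDB2, 2.21 for PLK2, 2.08 for the dimmer MDM2 probe, 2.04 for ZMAT3 and 1.64 for RPS27L on the log2 scale. For 7.4 Gy no unirradiated array shared the position. With position as a covariate, which for this dose rests on the 6.7 Gy animals in both positions, the log2 changes were 3.29 for DDB2, 2.41 for PLK2, 2.55 for the dimmer MDM2 probe, 2.47 for ZMAT3 and 2.09 for RPS27L. Against the unirradiated animal on the same slide, all 4 day 4 animals that could be compared were higher for PLK2 (1.55 to 2.27), DDB2 (1.48 to 2.78), RPS27L (1.0 to 2.13), ZMAT3 (1.58 to 1.96) and the dimmer MDM2 probe (1.57 to 2.37). CDKN1A was higher in 3 of 4 (-0.34 to 1.35).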

How the data were processed

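Labelled RNA of 24 ileum samples was read on Agilent 4x44K Rhesus arrays. The authors deposited a table of normalized log2 signal, which the comparison below showed to be the processed signal relative to each array's 75th percentile and then to each probe's median, and the deposited scanner files hold intensity per spot (Feature Extraction 11.0.1.1 per the file headers). Here log2 of the processed intensity minus the array's 75th percentile was used. The recomputed and deposited values agreed within 0.01 for 100% of single-spot probes after centring. The 75th percentile ranged from 837.3 to 1330, the share of probes well above background from 72.68% to 88.08%, and 0 spots were saturated. Precision is limited by how many arrays there were.

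Of 43603 probes, 36110 exceeded background clearly on all arrays of 1 or more groups, and these were tested with 7 group means in limma 3.58.1 (R 4.3.3), with Benjamini-Hochberg adjustment over all of them and calls at an adjusted p under 0.05 and a fold of at least 2. The procedure was tested on simulated data. Replicates are different animals. The members and gene lists were chosen with earlier results of these data known. Named were all members by every probe, list genes called on day 4, relatives of members, and the 8 symbols most like the members. Symbols are those deposited, updated through RefSeq accessions, which matched for 8317 probes and changed 1040 symbols. Coordinates and sequences were not used here. The rule for named genes also covers 1 gene that is not reported here.

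Samples were grouped by dose and day from the titles. A protocol text in the labels gives a last day of 21 where the titles and day field give 12, and 12 was used. Same-numbered animals of different groups did not deviate together (r -0.26 to 0.36, median 0.03, over 62 pairs). Alternatives were quantile normalization, normexp background (offset 50, on median signals), other filters and moderation, slide and position terms, a replicate block, the deposited table, the mean of a gene's probes, no fold limit, the methods' t-test, and leaving out each animal. The t-test without adjustment was chosen after seeing the data.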

Additional observations from a re-analysis of the deposited data

Results flagged for a closer look

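Each of the 12 probes was examined in the 5 groups of 4 animals, and in 3 of these 60 sets of values, which share animals, 1 animal stood apart from the rest of its group. Chance gives about 1 in 20. The dimmer MDM2 probe read -1.85 in replicate 1 of day 7 after 7.4 Gy, against -2.46 to -2.39 in the others. SESN1 read 0.91 in replicate 1 of day 7 after 6.7 Gy, against 0.73 to 0.76. ZMAT3 read -3.52 in replicate 2 of day 7 after 7.4 Gy, against -3.14 to -3.10.

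A call needed an adjusted p under 0.05 in the test of the difference itself (limma, Benjamini-Hochberg) and at least 2-fold. RPS27L at both doses and the dimmer MDM2 probe and ZMAT3 after 6.7 Gy passed the adjusted p but stayed under 2-fold. So did the brighter DDB2 probe and SESN1 after 7.4 Gy. Day 7 levels were called different from day 4 levels for 7 probe and dose combinations. These were PLK2 by -1.56 after 6.7 Gy and -1.45 after 7.4 Gy, the dimmer DDB2 probe by -1.24 and -1.15, the brighter DDB2 probe by -1.11 after 6.7 Gy, the dimmer MDM2 probe by -1.25 after 7.4 Gy, and ZMAT3 by -1.01 after 7.4 Gy. The day 4 animals took part in the choice of these genes, so the falls are not independent of it, and day cannot be told apart from slide position in this contrast.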

How the results depend on the processing

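The 4 member calls on day 4 at each dose kept their number in the alternatives run, with these exceptions: no fold limit and the mean of a gene's probes gave 5 after 7.4 Gy, and the methods' t-test with adjustment gave 0 after 6.7 Gy. That test also gave 0 members on day 7 at both doses, 0 lower on day 7 than on day 4 at both doses, and, for the other p53 targets, 0 after 6.7 Gy on day 4, 0 at both doses on day 7 and 0 on day 12 after 6.7 Gy; without adjustment it gave 2 other targets on day 12 at each dose. With no limit on the fold change, members called were 2 and 2 on day 7, and 4 and 5 lower on day 7 than on day 4. Normexp background gave 1 member lower on day 7 than on day 4 after 7.4 Gy and 2 other targets on day 4 at each dose. Other targets numbered 2 on day 4 after 7.4 Gy with slide as a block or with the mean of a gene's probes, 0 on day 12 after 6.7 Gy with slide as a block or no filter on dim probes, and 1 on day 7 after 6.7 Gy with no filter. The replicate block, which is not a true paired design here, gave 1 other target on day 7 and 0 on day 12 after 6.7 Gy, and changed no member count. Leaving out 1 animal in turn, members called on day 7 after 6.7 Gy ranged from 0 to 1, 0 without unirradiated replicate 1 or day 7 replicate 1 or 4. Members lower on day 7 than on day 4 ranged from 1 to 4 at each dose. Other targets ranged from 2 to 4 (day 4), 1 to 2 (day 7) and 0 to 2 (day 12) after 6.7 Gy, and from 0 to 1 on day 12 after 7.4 Gy; day 4 after 6.7 Gy was 2 without replicate 1. Small differences changed sign: for the brighter MDM2 probe, day 7 minus day 4 after 6.7 Gy was -0.01 with quantile normalization, -0.49 with the mean of its probes and -0.15 to 0.09 leaving out 1 animal, and day 12 minus day 4 was -0.26 to 0.08. The brighter TP53INP1 probe from day 4 to day 12 was -0.10 with the mean of its probes, and the dimmer one, day 7 minus day 4 after 6.7 Gy, -0.35 to 0.07. Of 43 dose or late differences given only as ranges, 21 changed sign under some setting and 0 were called under any. The causes were not tested.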
